A study of Mus musculus with 2 samples.

Results

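Uroplakins are the membrane proteins of the urothelium, the epithelium that lines the bladder, and the 5 uroplakin genes Upk1a, Upk1b, Upk2, Upk3a and Upk3b were examined here in the mouse ventral prostate. Every probe set that the platform annotation gives to exactly 1 gene symbol, that symbol being one of these 5, was included. This gave 9 probe sets for 5 genes, of 34945 single-symbol probe sets for 18193 genes, and 0 probe sets with several symbols named a uroplakin. The family was selected on the high Upk1a signal of these arrays, so that the Upk1a level is given as a description.

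Gene expression was profiled in ventral prostate from male mice of the C57BL/6J background at 3 months of age, to compare mRNA levels with and without U19/Eaf2, an androgen-induced partner of ELL-family transcription elongation factors. There were 2 samples, U19/Eaf2 -/- and U19/Eaf2 +/+, each with 1 biotin-labelled Affymetrix array of 45101 probe sets. The labels speak of prostates in the plural for both samples, and the sources used here do not say whether several animals were pooled. With 1 array per genotype there is no spread between animals and no test, and each difference below describes these 2 arrays.

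Uroplakin Ia and Ib, encoded by Upk1a and Upk1b, are tetraspanins, proteins that cross the membrane repeatedly, whereas uroplakins II, IIIa and IIIb cross it once. Uroplakin Ia pairs with uroplakin II, and uroplakin Ib with IIIa or IIIb, and the pairs leave the endoplasmic reticulum to build the plaques that stiffen the apical surface of superficial urothelial cells. Outside the urinary tract, Upk1b and Upk3b transcripts are also known from mesothelium, the lining of body cavities. The prostate develops from the urogenital sinus, from which urethral epithelium also arises.

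Values are the deposited linear signals. The authors' scaling acted on whole arrays, since the mean was 500.0 on both once the highest and lowest 2% of probe sets were left out. Signals of different probe sets depend on their probes and are not levels of RNA on a common scale. A floor at the median of all non-control signals, 166, stood in for detection calls, and 48.4% of non-control signals reached it on the array labelled knockout, against 51.6% on the wild-type array. Differences are log2 ratios, the array labelled knockout divided by the wild-type array. Signals under the floor were raised to it, which makes the ratio a bound. The only Eaf2 probe set with a single symbol read 702 on the array labelled knockout and 691 on the wild-type array. Which part of the gene was deleted is not stated in the sources used here, so that this signal does not check the label, and the sample is called the array labelled knockout throughout. The ratio of 3' to 5' signal for Actb, a guide to RNA degradation, was 1.65 on the array labelled knockout and 1.25 on the wild-type array, and for Gapdh it was 0.847 on the array labelled knockout and 0.714 on the wild-type array. Whether RNA degradation plays a part in the uroplakin differences was not tested.

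Upk1b read over 4-fold lower on the array labelled knockout in 3 of its 4 probe sets, and Upk1a was lower by a smaller factor. Upk3a was lower by a factor known only as a bound, Upk2 was slightly higher, and Upk3b stayed below the floor. Of the 9 probe sets, 7 reached the floor on at least 1 array, 6 of these on both. Their log2 ratio lay below 0 in 6, among them Upk3a, which entered through the wild-type array alone and could not lie above 0. It lay above 0 in 1, and the median was -0.61, beside a median of -0.04 over all 20538 single-symbol probe sets that reached the floor. The uroplakin median equals the Upk3a bound, whose size is set by where the floor is placed. Over the 6 uroplakin probe sets measured on both arrays the median was -1.31. A 30th-percentile floor gave -1.05, a 70th-percentile floor -1.3, and leaving the floor out -1.52. These medians were over 8, 6 and 9 uroplakin probe sets, the first and last with Upk3b included. The medians of all entering probe sets were then -0.07, 0.01 and -0.10. The size of the uroplakin median therefore depends on the floor. The 4 Upk1b probe sets weigh heavily in it. A signal lower by 2-fold or more was seen in 3 of the 7, all of Upk1b, against 1.04% of all entering probe sets, and a signal higher by 2-fold or more in 0 of the 7, against 0.687%. Past 2-fold, 213 of all entering probe sets were lower and 141 higher, a split that became 160 and 183 under quantile normalization and 156 and 178 under loess, while 3 uroplakin probe sets were lower under each.

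**Figure D1:**
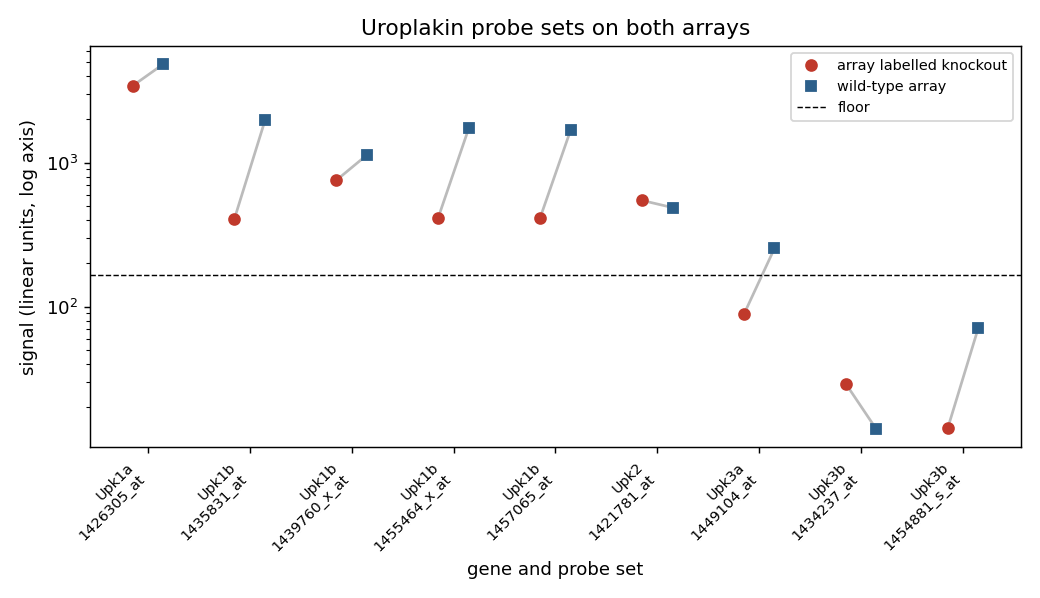
Signal of each uroplakin probe set on the array labelled knockout (red circles) and on the wild-type array (blue squares), on a log axis, 1 array each. The dashed line is the floor of 166; both Upk3b probe sets lie below it on both arrays, and 3 Upk1b probe sets are separated by more than 4-fold.

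Among the tetraspanin members, Upk1a encodes the uroplakin to which the FimH adhesin of uropathogenic Escherichia coli binds in the bladder. Its only probe set, 1426305_at, read 3413 on the array labelled knockout and 4829 on the wild-type array. Both signals were well above the floor, higher than those of 95.7% and 97.3% of the non-control probe sets on their arrays. The log2 ratio was -0.50, 1.42-fold lower on the array labelled knockout, and 2213 of the 20538 entering probe sets had a lower ratio. For scale, the log2 ratio had an SD of 0.373 over all entering genes. Between the 2 brightest probe sets of the same gene, log2 ratios differed with an SD of 0.470 over 4497 genes, and their signs were equal in 55.9%.

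The promoter of Upk1a is shown because the gene's high signal in prostate led to the choice of the family, and that of Upk3a as a member near the floor. Each window runs from 250 bases before to 50 bases after the annotated start, 5′ to 3′ along the gene, from RefSeq on GRCm38.p6, and 3 of the 5 genes had an entry. The Upk1a window is chr7:30612685-30612984 on the minus strand and the Upk3a window is chr15:85016891-85017190 on the plus strand. Capitals mark the motifs found in a search of both strands for the TATA box TATAAA, its variant TATATA, the androgen receptor hexamer TGTTCT, the nuclear receptor hexamer AGGTCA and the GATA factor motif AGATAA. The marked matches do not overlap.
Upk1a: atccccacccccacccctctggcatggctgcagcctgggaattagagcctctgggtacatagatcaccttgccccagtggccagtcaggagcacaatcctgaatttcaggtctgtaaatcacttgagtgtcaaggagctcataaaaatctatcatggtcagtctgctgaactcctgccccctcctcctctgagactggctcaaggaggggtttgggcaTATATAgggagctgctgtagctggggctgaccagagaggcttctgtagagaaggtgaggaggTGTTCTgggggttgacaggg
Upk3a: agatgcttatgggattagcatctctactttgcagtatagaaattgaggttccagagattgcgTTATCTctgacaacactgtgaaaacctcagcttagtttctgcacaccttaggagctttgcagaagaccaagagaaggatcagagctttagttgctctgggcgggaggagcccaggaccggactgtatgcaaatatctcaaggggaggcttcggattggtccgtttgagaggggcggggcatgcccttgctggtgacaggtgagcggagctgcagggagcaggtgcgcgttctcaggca
Upk1a held TATATA at bases 219 to 224 of its window and TGTTCT at bases 281 to 286, counted from 1 at the 5′ end, the second of these lying after the start. Of 32851 promoter windows of the same length, 5.67% held TATATA and 19% held TGTTCT on either strand. Upk3a held AGATAA on the opposite strand at bases 63 to 68, a motif present in 11.2% of windows. These are matches of letters and not sites of binding.

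Upk1b encodes the other tetraspanin uroplakin and carried the largest differences of the family. Probe set 1435831_at read 409 on the array labelled knockout and 1969 on the wild-type array, 4.82-fold lower with a log2 ratio of -2.27. Probe set 1455464_x_at read 416 on the array labelled knockout and 1736 on the wild-type array, 4.18-fold lower, and probe set 1457065_at read 414 on the array labelled knockout and 1688 on the wild-type array, 4.08-fold lower. The log2 ratios of the 3 probe sets spanned 0.24. These are not fully separate measurements, since 1435831_at and 1455464_x_at are annotated with the same expressed sequence, and the 3 rest on 2 sequences in all.

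The fourth Upk1b probe set, 1439760_x_at, went in the same direction by a smaller factor. It read 755 on the array labelled knockout and 1132 on the wild-type array, 1.499-fold lower with a log2 ratio of -0.58, and is annotated with a sequence of its own. Its log2 ratio lay closer to 0 than those of the other 3. The ending _x_at, which 1455464_x_at shares, marks probe sets whose probes can match other sequences. Over the 4 probe sets the median log2 ratio was -2.05.

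Which probe set stands for Upk1b decides how the gene reads in a table of 1 value per gene. Where the brightest probe set, by mean log2 signal over both arrays, represents a gene, 1439760_x_at stands for Upk1b, and 0 of the 4 uroplakin genes that enter pass 2-fold, beside 1.47% of the 11671 genes that enter. With the median over a gene's probe sets Upk1b has -2.05 and with probe sets ending in _s_at, _x_at or _a_at left out it has -2.27, and in both cases 1 uroplakin gene passes.

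Among the 20538 entering probe sets, 2 had a lower ratio than 1435831_at, 5 a lower ratio than 1455464_x_at and 6 a lower ratio than 1457065_at, other Upk1b probe sets included. Some of those values are bounds. Of 2180 genes with at least 3 entering probe sets, 2 had at least 3 of them past 2-fold in the same direction, 0.0917%. These were Upk1b and Slc35a5, a member of the nucleotide-sugar transporter family, which had 3 of 5 lower with log2 ratios of -1.47, -1.39 (a bound) and -1.09. This count was chosen after the Upk1b values were seen.

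**Figure D2:**
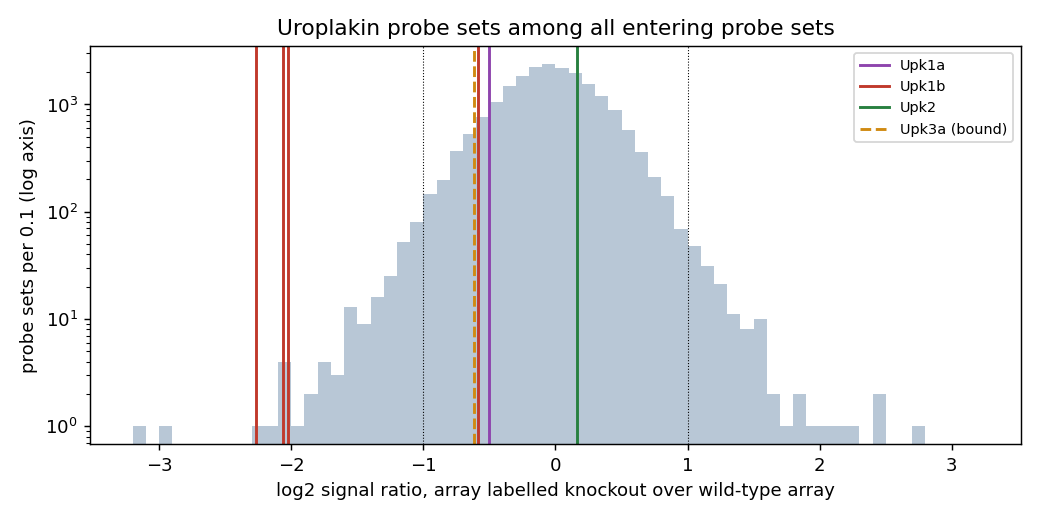
Distribution of the log2 signal ratio (array labelled knockout over wild-type array) over the 20538 entering single-symbol probe sets, with the count on a log axis and the 7 entering uroplakin probe sets as coloured lines. Dotted lines mark 2-fold; 3 of the 4 Upk1b lines lie below -2, the dashed Upk3a line is a bound, and the Upk2 line lies above 0.

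Upk2 encodes uroplakin II, the partner of uroplakin Ia. Its only probe set, 1421781_at, read 547 on the array labelled knockout and 488 on the wild-type array, a log2 ratio of 0.17. It was the only entering uroplakin probe set that was higher on the array labelled knockout, by a factor of 1.12. The Upk1a and Upk2 probe sets, for the proteins of the same pair, therefore had ratios of opposite sign. These log2 ratios differed by 0.67, beside the SD of 0.470 between probe sets of the same gene.

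Upk3a encodes uroplakin IIIa, a partner of uroplakin Ib with a cytoplasmic tail. Its only probe set, 1449104_at, read 88.5 on the array labelled knockout, below the floor, and 254 on the wild-type array. On the array labelled knockout the signal was therefore at least 1.53-fold lower, and without a floor the log2 ratio was -1.52. Since it entered through the wild-type array alone, the bound could not lie above 0 and shows nothing of a direction shared with Upk1b.

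Upk3b encodes uroplakin IIIb, the other partner of uroplakin Ib. Its probe set 1434237_at read 29.2 on the array labelled knockout and 14.1 on the wild-type array, and 1454881_s_at read 14.3 on the array labelled knockout and 70.9 on the wild-type array. All 4 signals were below the floor, no ratio is drawn from them, and the 2 probe sets, annotated with the same sequence, went in opposite directions. A low signal does not show that the transcript was absent. Upk3bl, a related gene outside the 5, was below the floor too, at 120 on the array labelled knockout and 59.8 on the wild-type array.

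Markers of superficial urothelial cells other than uroplakins were read, as in all lists below, by 1 standing probe set per gene, for which Upk1b has -0.58. Of 14 on the array, 11 entered, 7 with a ratio below 0 and 4 above, with a median of -0.15. Over all 11671 entering genes 53% lay below 0 and the median was -0.03. The lowest was Mal, a membrane-raft protein of apical transport, at 263 on the array labelled knockout and 492 on the wild-type array, a log2 ratio of -0.90, with -0.25 in its other probe set. Keratin Krt19 followed at -0.39, while Krt8 had 0.17. The tight-junction claudin Cldn4 was 2.08-fold higher, at 1572 on the array labelled knockout and 754 on the wild-type array, and was the only member past 2-fold, beside 0.591% of all entering genes at least 2-fold higher. The summed signal of the list was 37105 on the array labelled knockout and 38244 on the wild-type array. Several of these genes, such as Krt8, are expressed in prostate epithelium as well. Krt20, Snx31, Psca and Gsdmc, also in the list, were not among the 11, so the median holds no value for them.

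Regulators of urothelial differentiation centred near 0. Of 18 on the array, 14 entered, 8 below 0 and 6 above, with a median of -0.02 that turned positive under median centring, quantile normalization and loess. Rxra, the retinoid X receptor alpha, was 2.26-fold lower in the probe set standing for it, at 470 on the array labelled knockout and 1064 on the wild-type array, while its other entering probe set had a log2 ratio of 0.06. It was the only member of the 14 past 2-fold, beside 0.883% of all entering genes lower by that factor. The repressor Ovol1 had a bound of -0.33. Gata3, a zinc-finger transcription factor of urothelium, had 0.58, and Cebpa, a transcription factor of the bZIP class, 0.24.

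Genes for the transport of uroplakin plaques to the apical membrane were evenly divided, with 7 of 14 measured members below 0 and 7 above and a median of 0.01, negative under quantile normalization and loess. Besides Mal, the lowest was Rab3ip, an exchange factor for Rab8, at -0.38, with its other probe set at 0.53. The highest were Stxbp2, a binding protein of syntaxins, at 0.55 and the syntaxin Stx3 at 0.25, of whose 3 other probe sets 2 went the opposite way.

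The other tetraspanins, the wider family of Upk1a and Upk1b, had 14 of 25 entering members below 0 and 11 above, with a median of -0.07 and 0 past 2-fold. Their ratios ran from -0.76, a bound, for Tspan10, and -0.72 for Tspan32, to 0.54 for Tspan18 and 0.59 for Tspan15. By standing probe set, Upk1b at -0.58 and Upk1a at -0.50 lay within that range, while the other 3 Upk1b probe sets lay below it.

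**Figure D3:**
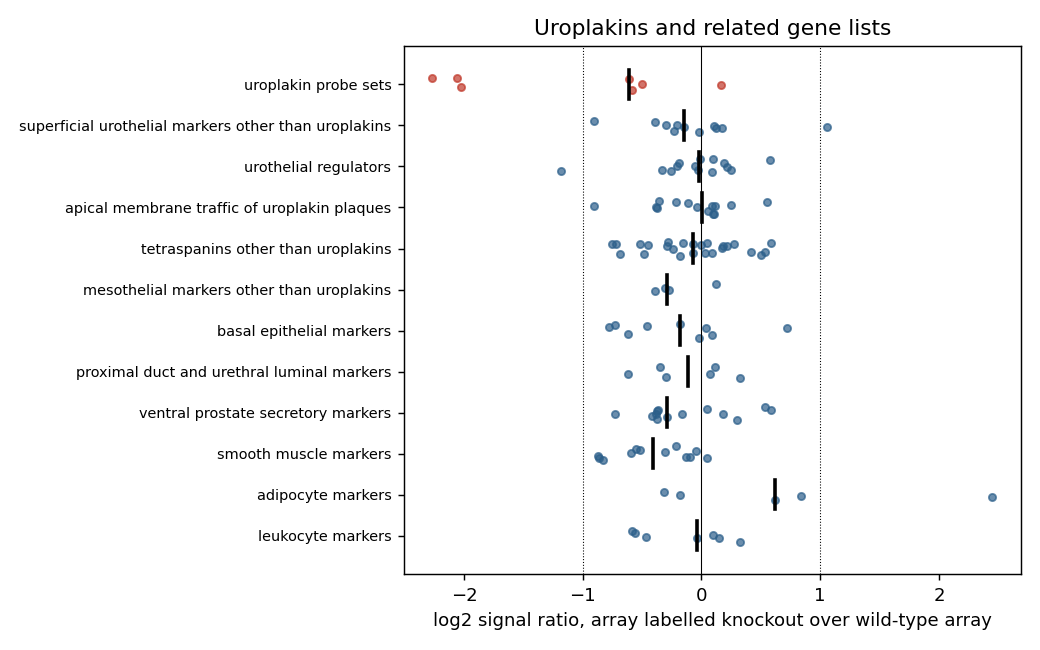
Log2 signal ratio (array labelled knockout over wild-type array) of the 7 entering uroplakin probe sets (red) and of the entering genes of 11 lists (blue, 1 probe set per gene); black bars are medians. The uroplakin median of -0.61 is over probe sets, 4 of them of Upk1b, and equals the Upk3a bound. Over genes, smooth muscle markers have a median of -0.41 and adipocyte markers 0.62.

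Cell types that could carry uroplakin transcripts, or be taken with the lobe, were read from marker lists. Of 16 genes listed as ventral prostate secretory markers, 13 had a single-symbol probe set and all 13 entered, beside 11671 of 18193 genes overall. Entry alone does not check the tissue label. The 13 genes had a summed signal of 270362 on the array labelled knockout and 287219 on the wild-type array. Their median log2 ratio was -0.29, from a bound of -0.72 for the transglutaminase Tgm4 and -0.42 for Fxyd3 to 0.53 for the serine protease Tmprss2, which had an opposite probe set, and 0.59 for the protease inhibitor Spink5. Of 7 seminal vesicle secretory genes, 0 reached the floor, the highest reading 71.2 on the array labelled knockout and 144 on the wild-type array.

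Mesothelial markers other than uroplakins were mostly below the floor, with 4 of 12 entering and 0 past 2-fold. Those 4 were Krt19, which the superficial urothelial list also holds, at -0.39, the protease inhibitor Slpi at -0.30, the matrix protein Efemp1 at -0.27 and haptoglobin, Hp, with a bound of 0.12, none of them limited to mesothelium. The probe sets standing for the other 8, Msln and Wt1 among them, were below the floor on both arrays. Markers of the proximal ducts and urethra had a median of -0.11, which turned positive under quantile normalization, with 3 of 6 below 0. The phosphatase inhibitor Ppp1r1b had -0.62 and the claudin Cldn10 -0.35, whereas clusterin, Clu, had 0.33 and the keratin Krt4 had 0.11 with its other probe set at -0.29.

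Basal epithelial markers had a median of -0.18, with 6 of 9 entering members below 0. The laminin chain Lama3 had -0.78 and the Notch ligand Jag2 -0.73, the second with an opposite probe set, while the basal transcription factor Trp63 had 0.09 and the cytoskeletal linker Dst 0.72. The summed signal of basal markers was 5517 on the array labelled knockout and 6059 on the wild-type array.

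Marker signals of tissue around the epithelium were read in the same way. Smooth muscle markers were lower in 11 of 12 members, with a median of -0.41, from calponin Cnn1 at -0.87 and the myosin light chain Myl9 at -0.86 to the tropomyosin Tpm2 at -0.04, which had an opposite probe set, and Lmod1 at 0.04. Their summed signal was 50703 on the array labelled knockout and 65223 on the wild-type array. Adipocyte markers had a median of 0.62 over 5 entering members and a summed signal of 3280 on the array labelled knockout and 1637 on the wild-type array. Much of that difference was the carbonic anhydrase Car3, at 1278 on the array labelled knockout and 234 on the wild-type array. Car3 had 2.45, with 1.19 in its other probe set. The fatty-acid carrier Fabp4 had 0.84, with 0.03 in its other probe set, while Plin4 had -0.31 and Retn -0.18. Leukocyte markers had a median of -0.04 over 7 members, positive under quantile normalization and loess, from a bound of -0.58 for Cd68 and -0.56 for Cd74 to 0.15 for Csf1r, with an opposite probe set, and 0.33 for Ptprc. In whole tissue, fewer cells of a type and less RNA per cell cannot be told apart, and the part of tissue makeup in the Upk1b difference was not tested.

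Upk1b lies on chromosome 16, as does Eaf2, with 27 protein-coding genes between them in the gene order of GRCm38.p6, which was used for order only. Upk1a, Upk2, Upk3a and Upk3b lie on chromosomes 7, 9, 15 and 5. Among the 10 protein-coding genes on either side of Upk1b, a window chosen after the values were seen, 12 genes had 23 entering probe sets, with a median log2 ratio of -0.08. Of these probe sets, 4 were at least 2-fold lower, against 1.04% of all, and 0 were at least 2-fold higher. The gene next to Upk1b towards Eaf2, the galactosyltransferase B4galt4, read 129 on the array labelled knockout, below the floor, and 671 on the wild-type array, at least 4.05-fold lower in its only probe set. The next gene, Arhgap31, had 2 of 3 entering probe sets past 2-fold, at -1.75 (a bound) and -1.01, and -0.21 in the other. Popdc2, further towards Eaf2, had a bound of -1.05.

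On the other side, Igsf11 had -0.71 and Lsamp a bound of -0.36, whereas the 9 probe sets of Zbtb20 ran from -0.37 to 0.56 and Qtrt2 had 0.40. Cox17, next to Popdc2 towards Eaf2, had 0.15. Of the 23 entering probe sets of the neighbours, 15 lay below 0 and 8 above. Over all entering genes, by standing probe set, 53% lay below 0. Between Popdc2 and Arhgap31, Pla1a, Timmdc1 and Poglut1 had -0.08, -0.14 and -0.32, and the 2 probe sets of Tmem39a had -0.43 and 0.13. Of the 4 neighbouring probe sets past 2-fold, those of B4galt4 and Popdc2 and 1 of Arhgap31 entered through the wild-type array alone, so that their ratios could not lie above 0. Eaf2 itself had 0.02.

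**Figure D4:**
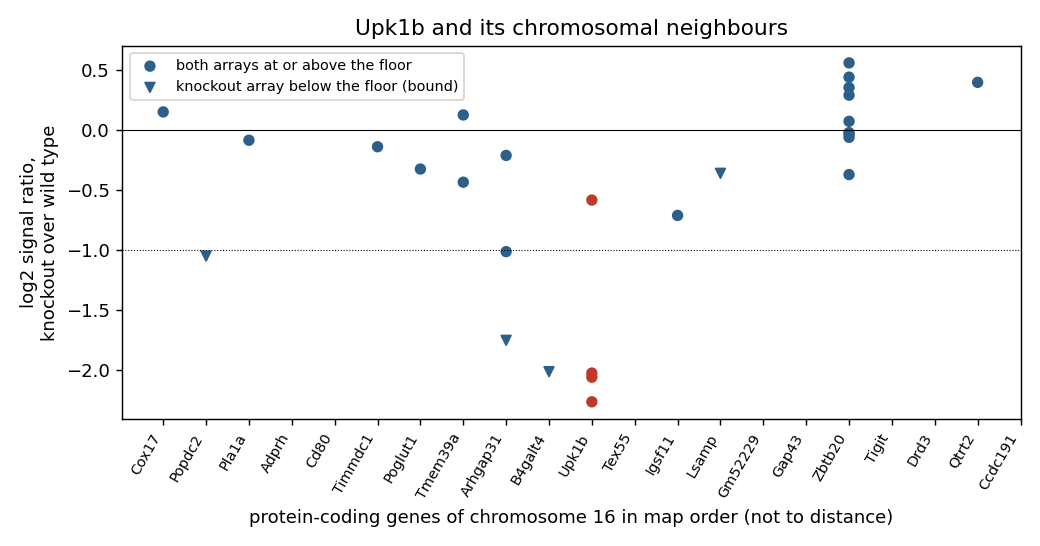
Log2 signal ratio (array labelled knockout over wild-type array) of each entering probe set of Upk1b (red) and of its 10 protein-coding neighbours on each side (blue), in gene order and not to distance; triangles are bounds. Genes with no point have no entering probe set, Eaf2 lies further to the left, and B4galt4 and 3 of 4 Upk1b probe sets lie below -2.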

How the data were processed

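The study measured mRNA in 2 ventral prostate samples, 1 per genotype. The deposited values were linear signal intensities per probe set, made with GCOS 1.4 per the submitters' processing notes. Its settings, and the authors' detection calls, are not used here. A low intensity could therefore not be separated from background. Control probe sets were left out, and 932 probe sets with several symbols and 9160 with none entered no gene result.

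Probe sets with a signal at or over the floor, the 50th percentile of pooled signals, on at least 1 array entered. No pseudocount was added. A gene's standing probe set was that with the highest mean log2 signal. There was no test. Of the 12 gene lists, the 2 highest and 2 lowest members and those past 2-fold were named. The members and lists were chosen with earlier results of these data known. Precision is limited by the number of arrays. The calculations were tested on simulated data with less scatter than these arrays show. Changes were planted only in probe sets well above the floor, so that changes near it were not tested. Alternatives were median centring, quantile normalization, loess with a span of 0.4, other floors, a pseudocount of 50, other probe set choices and thresholds of 1.5- and 3-fold. Python 3.11.15, numpy 2.4.6, pandas 2.3.3 and statsmodels 0.14.6 were used.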

Additional observations from a re-analysis of the deposited data

How the results depend on the processing

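The Upk1a, Upk1b, Upk2 and Upk3a ratios kept their sign under every scaling, floor, pseudocount and probe set choice that gave a value. The 3 low Upk1b probe sets stayed between -2.27 and -1.91 under each scaling, floor and pseudocount. The Upk1b gene value was -2.045 with the median over probe sets and -2.268 without suffixed probe sets, by construction, since both take other probe sets. Upk3a had -1.52 without a floor or with a 30th-percentile floor, and -1.134 with the pseudocount of 50. The number of uroplakin genes past the threshold was 1 with a 30th-percentile floor, the pseudocount or a 1.5-fold threshold, where it was Upk3a. At 1.5-fold the Upk3a value was a bound. The number was also 1 with the median over probe sets or no suffixed probe sets, where the gene was Upk1b. With no floor 2 passed, Upk3a and Upk3b, and 5 uroplakin probe sets were 2-fold lower, beside 12% of all. The 2 Upk3b probe sets then had -2.311 and 1.05, from signals under the floor on both arrays. Over all genes, lower and higher counts were 505 and 203 with a 30th-percentile floor, 25 and 37 with a 70th-percentile floor, 1884 and 967 with no floor, 731 and 547 at 1.5-fold and 7 and 5 at 3-fold. Lower genes numbered 67 under loess and 189 with the pseudocount, and higher genes 42 with the median over probe sets. The adipocyte median was 0.22 without suffixed probe sets. The medians of urothelial regulators, plaque transport, proximal duct and leukocyte lists changed sign under at least 2 settings each, quantile normalization among them. Shifts were read against 0.332, the SD per probe set. No paired analysis was possible because each group has 1 sample. Values below the floor have no order.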

Other observations

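Of 756 entering probe sets on chromosome 16, 19 were lower by 2-fold or more on the array labelled knockout, 2.51%, against 0.423 to 1.67% on the other autosomes and chromosome X. Of those 19, 10 belonged to Upk1b, Popdc2, Arhgap31, B4galt4 and Slc35a5, and without these 5 genes 9 of 742 were lower, 1.21%. These genes were left out because they held lower probe sets, which lowers the share by construction. No other chromosome had genes left out, so the 1.21% is not comparable with their shares. The share higher by 2-fold or more was 1.19% on chromosome 16, 9 of 756, against 0.259 to 1.18% on the others. Chromosome 18, with 7 of 595, had nearly the same share. The 19 probe sets belonged to 14 genes. Besides Upk1b, they included 3 probe sets of Slc35a5, which lies 27 genes beyond Upk1b on the side away from Eaf2 and read 1451 on the array labelled knockout and 4011 on the wild-type array in its brightest probe set. Slc35a5 and Upk1b, the only genes among 2180 with at least 3 probe sets past 2-fold the same way, thus lie on the chromosome that carries Eaf2. Other genes of the 14, such as Hic2 and Dscam, lie 249 genes before and 296 genes after Upk1b. Probe sets of a gene are not independent, the chromosome was examined after the Upk1b values were seen, and no test was made. The sources used here give the C57BL/6J background and do not say how the allele was made.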
